A study of Arabidopsis thaliana with 4 samples.

Results

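The 10 genes described here belong to the major latex protein-like (MLP) family of Arabidopsis thaliana and were taken by their identifiers from the 32833 genes of the count table. They are MLP28 (AT1G70830), MLP31 (AT1G70840), MLP34 (AT1G70850), AT1G70880, MLP43 (AT1G70890), MLP165 (AT1G35260), MLP168 (AT1G35310), MLP328 (AT2G01520), MLP329 (AT2G01530) and MLP423 (AT1G24020). All except AT1G70880, which the RefSeq annotation places in the wider polyketide cyclase and lipid transport superfamily, carry an MLP name there. They were chosen by measured values too, the counts of the libraries labelled cml39 against those labelled wt, so the difference between these groups is given as a description of the 10, without a test. RNA of 7-day-old seedlings of the Col0 ecotype was sequenced after stranded mRNA library preparation. There were 2 libraries labelled cml39, from plants homozygous for a mutation (cml39 -/-) of the calmodulin-like calcium sensor CML39, and 2 labelled wt, from wild type. Both groups were grown with 16 h of light and 8 h of darkness at 22 °C. The labels name neither the mutant allele nor the number of seedlings behind a sample, and since nothing says that samples of a group were raised apart, p-values measure only the spread between these samples, which may be technical.

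MLP proteins are named after an abundant protein of opium poppy latex and share the fold of the birch pollen allergen Bet v 1, a small protein built around a deep cavity that takes up hydrophobic molecules. The abscisic acid receptors of the PYR/PYL group have the same fold, with abscisic acid in the cavity. In gourds, MLP proteins carry hydrophobic pollutants into the xylem sap. In Arabidopsis, MLP43 is known as a positive regulator of abscisic acid responses and drought tolerance. MLP328 and MLP329, also named ZCE1 and ZCE2, were first described as genes raised by cis-cinnamic acid and promote vegetative growth.

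The libraries held 21981123 and 19821451 counts under the cml39 label and 24101882 and 19331639 under the wt label. CML39 (AT1G76640) itself had 45 and 21 counts in the libraries labelled cml39 and 0 in both labelled wt, which put it 27.4-fold or more above the 3 counts taken as the floor of the wt pair. Leaving out wt 1, wt 2 or cml39 1 brought this limit to 12.1, 15.4 or 18.2. More transcript under the mutant name would not be a loss of transcript, but the label states no such loss and names no allele. What these counts come from was not tested, so directions below speak of libraries by their labels. Of 19834 genes with enough counts to be tested, 8107 passed edgeR's quasi-likelihood test at an adjusted p of 0.05, which is 40.9% of them, 21.6% lower and 19.3% higher. Without wt 1, 4177 genes passed. Lower genes made up 52.9% of the calls with the scaling used here and 66.65% with upper quartile scaling, which set the median log2 change of all genes at -0.15 in place of -0.0052.

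Of the 10 genes, 7 lie in 2 tandem groups. On chromosome 1, an array of 7 MLP genes on the minus strand with no other coding gene between them runs over 16764 bases, chr1:26709889-26726652 in the reference assembly TAIR10.1. It holds MLP28, MLP31, MLP34, AT1G70880 and MLP43, together with AT1G70860 and AT1G70870, which are not among the 10. On chromosome 2, MLP328 (chr2:235925-237253) and MLP329 (chr2:239669-240687) follow each other on the plus strand, 2415 bases apart. MLP165 (chr1:12936849-12937787) and MLP168 (chr1:12956119-12957090) lie 18331 bases apart on the minus strand of chromosome 1 with 1 coding gene between them, and MLP423 (chr1:8500119-8502065) stands on its own. The coding sequences of MLP28 and MLP34 are 1008 and 951 bases long, in 3 coding exons each. Those of the other 8 genes are 456 to 516 bases long, in 2 coding exons each.

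Coding sequences were 56.9% to 89.8% identical over the 45 pairs of these genes, with a median of 62.7%. The closest pairs were MLP28 with MLP34 (89.8%), MLP328 with MLP329 (89.7%), MLP28 with MLP43 (85.1%), MLP34 with MLP43 (84.9%) and MLP165 with MLP168 (82.7%). Relatives this close can share reads. Of all stretches of 50 bases in the exons of MLP28 and of MLP34, 2.4% and 2.7% occurred elsewhere in the genome, against 0.793% in AT1G70880 and 0 in each of the other 7 genes. No stretch of 100 exon bases of any of the 10 occurred elsewhere. None of the 10 overlapped another annotated gene, so that counting without strand would not have added antisense reads of an annotated gene to them.

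The 250 bases before the annotated start are shown for both pairs whose coding sequences are most alike, because the genes of each pair differed from each other in the size of their change. Capitals mark matches to TATAAA, which was the only motif of the 8 searched that these 4 windows held on either strand. The windows are chr1:26711588-26711837 for MLP28 and chr1:26716902-26717151 for MLP34, both minus strand, and chr2:235675-235924 for MLP328 and chr2:239419-239668 for MLP329, both plus strand, in TAIR10.1 from RefSeq. Where a gene has several transcripts, as MLP28 has 5 and MLP34 has 3, the start is the outermost.
MLP28: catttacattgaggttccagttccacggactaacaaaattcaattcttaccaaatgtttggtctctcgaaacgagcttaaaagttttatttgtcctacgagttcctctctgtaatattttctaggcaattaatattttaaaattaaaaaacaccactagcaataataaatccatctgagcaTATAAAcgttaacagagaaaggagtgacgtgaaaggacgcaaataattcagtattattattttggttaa
MLP34: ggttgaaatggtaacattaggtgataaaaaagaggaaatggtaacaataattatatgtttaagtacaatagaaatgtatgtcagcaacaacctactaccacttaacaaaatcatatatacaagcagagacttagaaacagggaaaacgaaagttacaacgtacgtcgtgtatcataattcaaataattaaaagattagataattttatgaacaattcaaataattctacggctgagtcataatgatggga
MLP328: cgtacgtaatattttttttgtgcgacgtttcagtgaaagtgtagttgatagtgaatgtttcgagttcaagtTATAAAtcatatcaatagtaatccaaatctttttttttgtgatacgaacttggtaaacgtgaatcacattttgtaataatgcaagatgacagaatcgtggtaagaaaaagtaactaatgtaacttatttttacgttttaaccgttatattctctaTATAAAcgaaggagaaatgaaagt
MLP329: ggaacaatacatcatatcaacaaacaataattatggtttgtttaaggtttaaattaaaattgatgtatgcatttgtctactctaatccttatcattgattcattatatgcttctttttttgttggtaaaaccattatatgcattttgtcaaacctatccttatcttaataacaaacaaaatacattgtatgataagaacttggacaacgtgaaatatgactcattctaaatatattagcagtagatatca

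Upstream windows were less alike than the coding sequences of the same pairs. MLP28 and MLP34 were 54.7% identical over 232 aligned bases, and MLP328 and MLP329 62.5% over 216, within the range of 54.6% to 70.6% over all pairs of the 10. TATAAA stood 24 and 179 bases before the start of MLP328 and 69 bases before that of MLP28, and was not in the windows of MLP329 and MLP34. It was in the windows of 5 of the 10 genes (MLP28, MLP31, MLP165, MLP168 and MLP328), against 47.3% of 27443 promoters of protein-coding genes. The evening element AAATATCT, known from clock-controlled genes, was in 2 windows, 126 bases before MLP43 and 155 bases before MLP168, against 4.79% of all promoters. The letters CGCGTT, of sites for calmodulin-binding CAMTA factors, were in the window of MLP31 and those of the RY element CATGCA in that of MLP165, against 2.59% and 8.43% of all promoters. The G-box CACGTG, the abscisic acid response letters ACGTGTC, the W-box TTGACC and the dehydration response letters ACCGAC were in none of the 10 windows, and in 6.49%, 3.68%, 12.2% and 4.70% of all promoters. CACGTG and ACGTGTC can overlap by their shared ACGTG. Such matches describe letters in a window and do not show binding. Their relation to the size of a gene's change was not tested.

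MLP28 had 14.8 and 11.8 CPM in the libraries labelled cml39, against 291 and 303 CPM in those labelled wt. CPM, the normalised count, is taken on library sizes corrected by TMM scaling, so that a level is relative to the rest of its library. Both cml39 values were far under both wt values, and the fitted log2 change was -4.47 ± 0.14 (SE, n = 2 libraries per group), a level 22.2-fold lower. In these bulk samples, fewer cells of a type and less RNA per cell cannot be told apart.

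MLP34, the nearest relative of MLP28, had 94.6 and 105 CPM in the libraries labelled cml39, against 651 and 505 CPM in those labelled wt. The groups were apart here too, by a smaller step, with a log2 change of -2.53 ± 0.15 (SE), or 5.78-fold lower. MLP43, the abscisic acid regulator at the other end of the array, had 26.1 and 24.9 CPM in the libraries labelled cml39, against 138 and 133 CPM in those labelled wt. Its libraries lay close together within each group, and the log2 change was -2.41 ± 0.11 (SE), or 5.31-fold lower. AT1G70880, the neighbour of MLP43, had 4.53 and 3.01 CPM in the libraries labelled cml39, against 13.1 and 12.5 CPM in those labelled wt. This was the smallest step among the fitted genes of the 10, with a log2 change of -1.76 ± 0.23 (SE), or 3.38-fold lower.

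MLP31, between MLP28 and MLP34, had too few counts to show whether it changed with its neighbours. It had 0 and 12 counts in the libraries labelled cml39 and 0 in both labelled wt, too few to be tested. All its reads came from cml39 2, so the groups overlapped at 0, and at 3 counts per library the level could have been up to 0.151 CPM in cml39 1, 0.113 in wt 1 and 0.143 in wt 2. In that library 11 seed storage, oleosin and late embryogenesis genes, listed after the values were seen, summed to 186 CPM, against 3.12 CPM in cml39 1, 2.18 in wt 1 and 2.44 in wt 2. The part of those transcripts in the counts of MLP31 was not tested. Taken over the group, MLP31 was at least 4.99-fold higher in the cml39 libraries when the wt pair is set at a floor of 3 counts. Leaving out wt 1, wt 2 or cml39 1 moved this limit to 2.19, 2.80 or 10.4, and without cml39 2 there was none. Another MLP gene outside the 10, AT1G14950, had the same pattern, with 0 and 15 counts in the libraries labelled cml39 and 0 in both labelled wt.

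**Figure D1:**
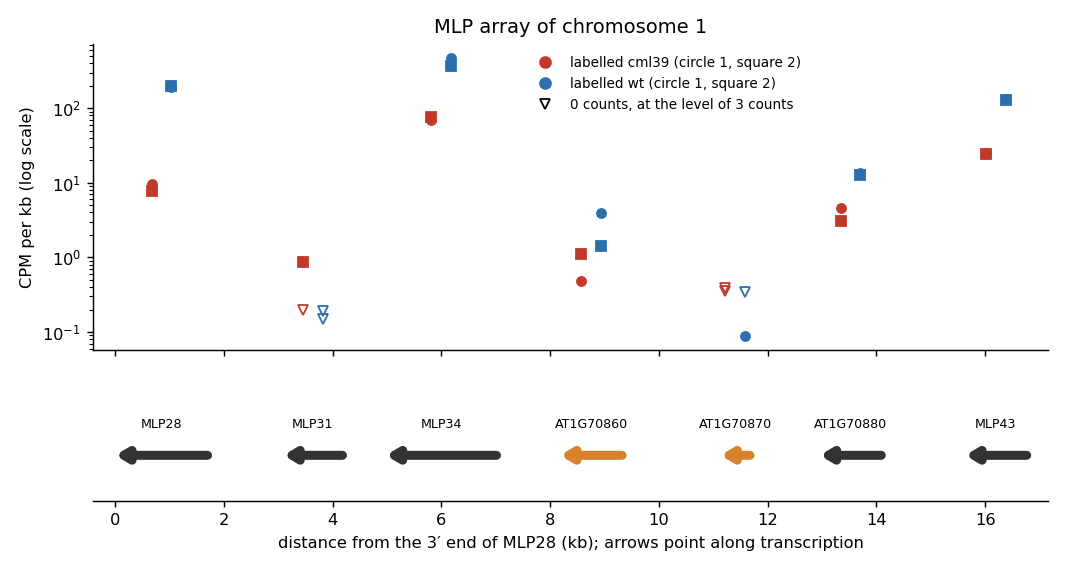
Level of the 7 genes of the chromosome 1 array, in CPM per kilobase of exon on a log axis, above a map in kilobases from the 3′ end of MLP28; each symbol is 1 library and open triangles are libraries with 0 counts, drawn at the level of 3 counts. Dark arrows are genes of the 10 and orange arrows the other 2; for MLP28, MLP34, AT1G70880 and MLP43 both cml39 symbols lie under both wt symbols, while MLP31 was read in cml39 2 alone.

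On chromosome 2, MLP328 had 4.93 and 7.28 CPM in the libraries labelled cml39, against 225 and 139.6 CPM in those labelled wt. It was the farthest apart of the 10, at a log2 change of -4.90 ± 0.28 (SE), or 30.0-fold lower, although the wt libraries differed from each other by 1.61 times. MLP329 had 38.6 and 36.9 CPM in the libraries labelled cml39, against 147 and 153 CPM in those labelled wt. The groups did not overlap, and the log2 change of MLP329 was -1.99 ± 0.10 (SE), or 3.97-fold lower.

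MLP165 had 1.16 and 2.30 CPM in the libraries labelled cml39, against 9.15 and 8.27 CPM in those labelled wt. All 4 values were low and the cml39 libraries were spread more widely than those of MLP43, but the groups did not overlap, and the log2 change was -2.34 ± 0.32 (SE). MLP168, its relative, was near the limit of detection, with 0 and 3 counts in the libraries labelled cml39 and 21 and 12 in those labelled wt. The summed level of MLP168 was 8.82-fold higher in wt, with an exact binomial 95% interval of 2.77 to 45.0 that covers counting error only. This ratio was 4.23 without cml39 1, 7.30 without wt 1 and 10.02 without wt 2, and at least 4.60 without cml39 2. MLP168 was past the threshold of the fit across all genes in 5 of 11 other settings, and each of the other 8 fitted genes in every setting that tested it.

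MLP423 had 0.956 and 0.547 CPM in the libraries labelled cml39, from 19 and 10 counts, against 17.7 and 11.3 CPM in those labelled wt, from 472 and 236 counts. The groups did not overlap, and the log2 change of MLP423 was -4.25 ± 0.35 (SE), or 19.0-fold lower, exceeded among the 9 fitted genes by MLP328 and MLP28. The libraries of a group differed from each other here as well, by 1.75 times under the cml39 label and 1.57 times under the wt label.

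**Figure D2:**
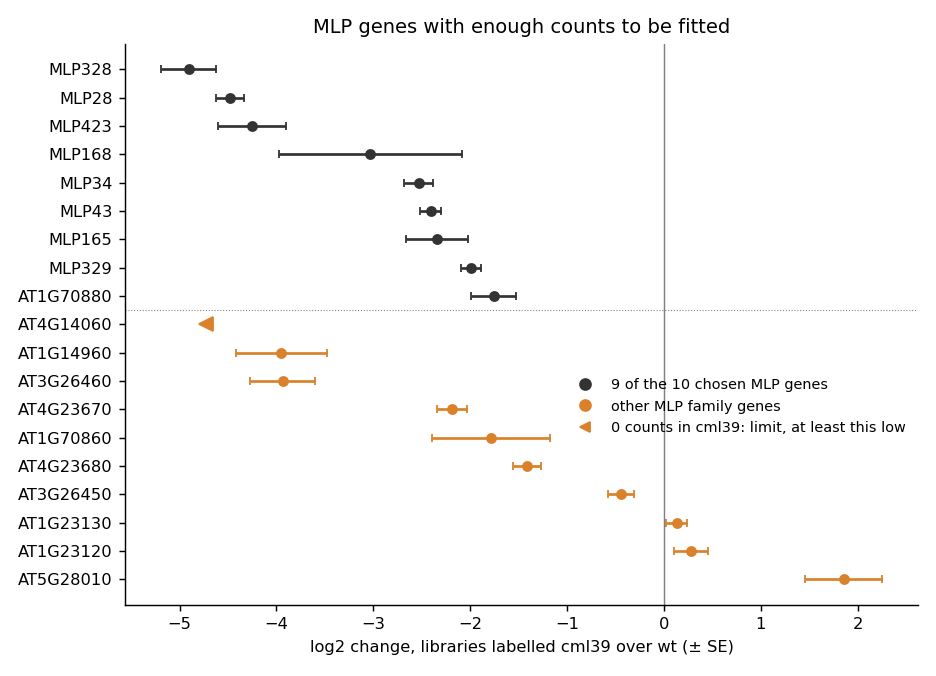
Fitted log2 change of the 9 fitted MLP genes, libraries labelled cml39 over libraries labelled wt, with bars of 1 standard error, above the same for the other MLP family genes that were tested; the orange triangle of AT4G14060 marks a limit, since its cml39 counts were 0. The 9 lie between -4.90 for MLP328 and -1.76 for AT1G70880, and the bar of MLP168 is the longest among them.

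Of the 10 genes, 9 had enough counts to be tested, and all 9 were past the threshold on the lower side, beside 21.6% of all genes tested. At least 4-fold lower were 7 of them, beside 7.66% of all genes tested, and both cml39 libraries lay under both wt libraries in 9, beside 38.0%, and above both in 0, beside 36.0%. Their median log2 change was -2.53, against -0.0052 over all genes tested. These counts follow from how the genes were chosen and are given as a description. Summed over the 10 genes, transcripts made up 186 and 193 CPM in the libraries labelled cml39, against 1492 and 1267 CPM in those labelled wt. The sum was 7.28-fold lower under the cml39 label, and the wt sums were farther apart than the cml39 sums. The summed level of 24 root marker genes moved the same way and was 3.92-fold lower under the cml39 label. Most of that sum was PYK10, at a mean of 1091 of 1272 CPM under the cml39 label and 4021 of 4985 CPM under the wt label. The part of the root marker change in the levels of the MLP genes was not tested.

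**Figure D3:**
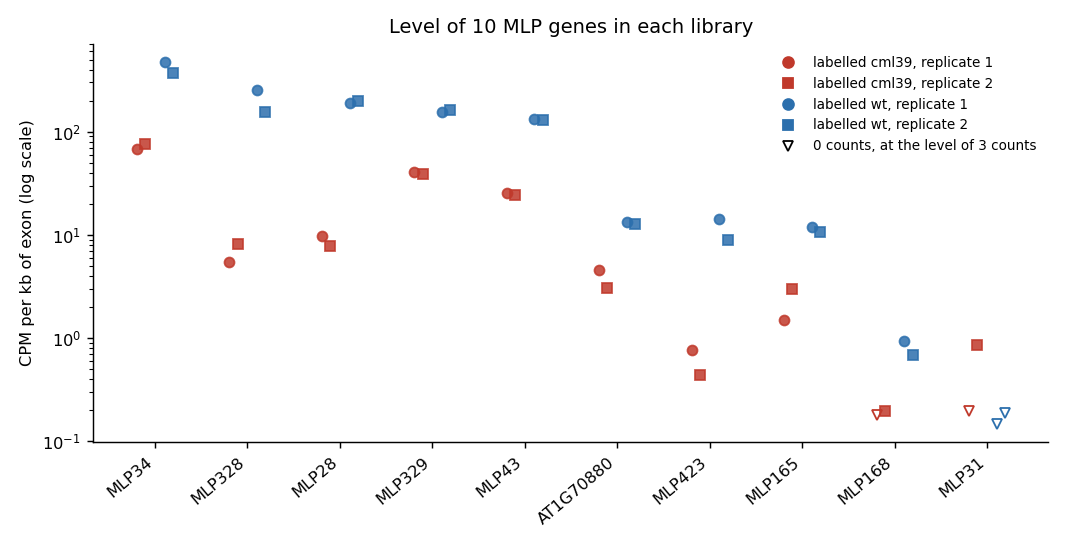
Level of each of the 10 MLP genes in every library, in CPM per kilobase of exon on a log axis; each symbol is 1 library and open triangles are libraries with 0 counts, drawn at the level of 3 counts. For 9 genes both cml39 symbols lie under both wt symbols, and MLP31 was read in cml39 2 alone.

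Levels of different genes were compared as CPM per kilobase of exon. In the libraries labelled cml39, MLP34 was highest at 72.6 ± 5.55 CPM per kilobase (SD, n = 2), followed by MLP329 at 40.2 ± 1.32, MLP43 at 24.7 ± 0.83 and MLP28 at 8.76 ± 1.40. MLP328 followed at 6.82 ± 1.85, with a range that overlapped that of MLP28, and then came AT1G70880 at 3.84 ± 1.09 and MLP165 at 2.25 ± 1.05. MLP423 (0.600 ± 0.231), MLP31 (0.433 ± 0.612) and MLP168 (0.0988 ± 0.140) overlapped their neighbours in this order.

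In the libraries labelled wt, MLP34 was again highest, at 419.7 ± 74.7 CPM per kilobase (SD, n = 2), but MLP328 at 204 ± 67.4 and MLP28 at 195 ± 5.75 came next and overlapped each other. MLP329 (159.6 ± 4.95) lay within the range of MLP328, from 155.9 to 251 CPM per kilobase, and under that of MLP28, and MLP43 (131 ± 3.66) lay under all of these. AT1G70880 (13.0 ± 0.436) and MLP165 (11.4 ± 0.808) did not overlap each other, but MLP423 (11.6 ± 3.62) between them overlapped both, MLP168 stood at 0.819 ± 0.182, and MLP31 had no counts. By its mean, MLP328 was in the fifth place under the cml39 label and in the second under the wt label, but in cml39 2 it stood above MLP28, and in wt 2 under MLP28 and MLP329.

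The 10 genes took a different composition under the 2 labels, with the rest of the family left out of the shares. MLP34 supplied 43.7% and 46.8% of the summed level per kilobase of the 10 genes in the libraries labelled cml39, against 37.9% and 35.0% in those labelled wt. MLP329 supplied 26.1% and 24.0% in the libraries labelled cml39, against 12.5% and 15.6% in those labelled wt. MLP43 supplied 16.1% and 14.8% in the libraries labelled cml39, against 10.8% and 12.3% in those labelled wt. These 3 genes had larger shares in both cml39 libraries than in either wt library. MLP328 supplied 3.50% and 4.98% in the libraries labelled cml39, against 20.2% and 14.9% in those labelled wt. MLP28 supplied 6.20% and 4.75% in the libraries labelled cml39, against 15.3% and 19.0% in those labelled wt. Both had smaller shares in each cml39 library than in either wt library. The remaining 5 genes together held 4.38% and 4.63% under the cml39 label and 3.24% and 3.17% under the wt label, and moved in different directions. AT1G70880 held 2.93% and 1.88% under the cml39 label and 1.07% and 1.22% under the wt label, while MLP423 held 0.485% and 0.267% under the cml39 label and 1.13% and 0.860% under the wt label.

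**Figure D4:**
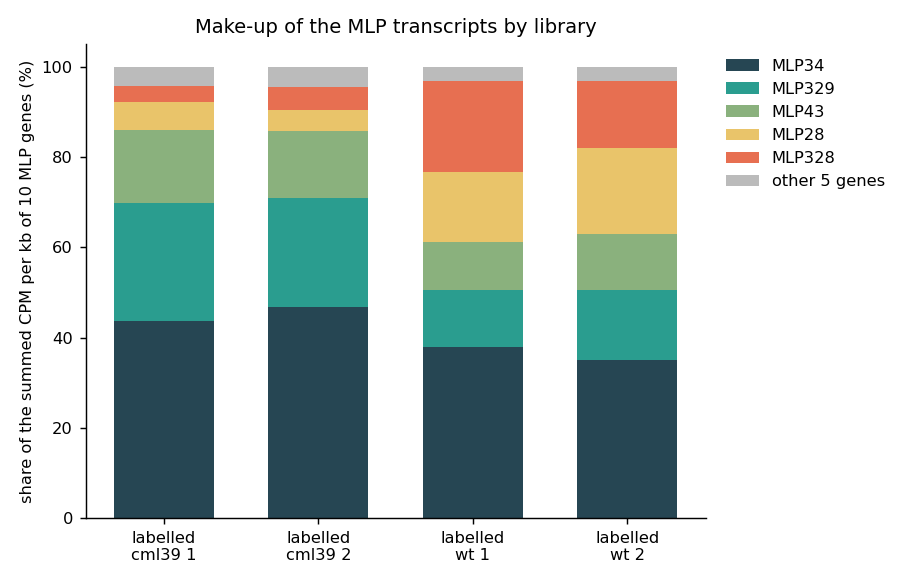
Share of each MLP gene in the summed level of the 10 genes, in percent of CPM per kilobase of exon, with 1 bar per library; the 5 genes of lower level are drawn together. The shares of MLP28 and MLP328 are smaller, and those of MLP34, MLP329 and MLP43 larger, in both cml39 bars than in either wt bar.

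The level of a gene was also set against that of its close relative within each library. MLP328 had 0.134 and 0.207 times the level per kilobase of MLP329 in the libraries labelled cml39, against 1.61 and 0.956 times in those labelled wt. MLP28 had 0.142 and 0.101 times the level of MLP34 in the libraries labelled cml39, against 0.404 and 0.543 times in those labelled wt. In both pairs each cml39 ratio lay under both wt ratios. These are the pairs whose upstream windows are printed above. MLP34 over MLP43 gave 2.71 and 3.17 in the libraries labelled cml39, against 3.53 and 2.85 in those labelled wt, so the ratios of that pair overlapped. MLP165 over MLP168 could be formed in 3 libraries, at 15.2 in cml39 2, against 12.6 and 15.6 in wt 1 and wt 2. The cml39 2 ratio rests on 3 counts of MLP168, which had 0 in cml39 1, so it says little about a difference between the groups.

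Outside the 10, 17 further genes of the family were in the count table. Of these, 10 were tested, and by edgeR's quasi-likelihood test with Benjamini-Hochberg adjustment 7 fell, 1 rose and 2 did not pass, beside 21.6% of all genes tested that fell and 19.3% that rose. Not all of these calls passed in the authors' deposited comparison. Its Wald test adjusted p was 0.770 for AT4G14060, 0.335 for AT3G26450, 0.198 for AT1G70860, 0.102 for AT5G28010 and 0.0596 for AT1G14960. For AT4G23670, AT4G23680 and AT3G26460 the deposited Wald test adjusted p was 3.34e-05, 3.42e-05 and 0.00548. The median log2 change of the tested genes among the 17 was -1.60 in the fit of the counts. Their summed level was 642 and 659.9 CPM in the libraries labelled cml39, against 1664 and 1401 CPM in those labelled wt, 2.35-fold lower. AT1G23910 and AT5G28000 had no counts in any library, and 5 others had too few to be tested.

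AT4G23670 was the most abundant of them under the wt label and fell, with 213 and 257 CPM in the libraries labelled cml39, against 1191 and 948 CPM in those labelled wt (log2 change -2.19 ± 0.15 SE, edgeR adjusted p = 9.33e-05). Its tandem neighbour AT4G23680 fell by less, with 20.7 and 16.96 CPM in the libraries labelled cml39, against 54.3 and 46.4 CPM in those labelled wt (log2 change -1.42 ± 0.15 SE, edgeR adjusted p = 0.000353). In the second tandem pair, AT3G26460 fell, with 1.31 and 0.602 CPM in the libraries labelled cml39, against 16.8 and 12.9 CPM in those labelled wt (log2 change -3.94 ± 0.33 SE, edgeR adjusted p = 0.000171), and its log2 change was -4.61 without cml39 1. Of the 50-base stretches in the exons of AT3G26460 and AT3G26450, 3.84% and 3.24% occurred elsewhere in the genome, so reads of this pair are less certain. AT3G26450, next to it and 92.6% identical in coding sequence, had 68.2 and 73.7 CPM in the libraries labelled cml39, against 108 and 84.6 CPM in those labelled wt. Its log2 change was small, at -0.44 ± 0.14 SE (edgeR adjusted p = 0.0340). That call was lost without wt 1 (edgeR adjusted p = 0.298) and without cml39 1 (edgeR adjusted p = 0.0655). AT3G26450 also lies over AT3G26440 on the other strand for 2265 bases, and since the strand setting of the counting is not given in the sources used here, reads of the 2 genes may not have been told apart.

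AT1G14960 fell, with 0.201 and 0.219 CPM in the libraries labelled cml39, against 3.90 and 2.73 CPM in those labelled wt (log2 change -3.95 ± 0.47 SE, edgeR adjusted p = 0.000661). AT4G14060 had 0 counts in both libraries labelled cml39 and 76 and 23 in those labelled wt, at least 26.5-fold lower with 3 counts over the cml39 group as the floor (edgeR adjusted p = 0.00347). Leaving out wt 1, wt 2, cml39 1 or cml39 2 set the limit for AT4G14060 at 14.0, 36.2, 12.7 or 13.8. The authors' deposited comparison gave AT4G14060 a log2 change of only -0.20 ± 0.34 (SE), with a Wald test adjusted p of 0.770. The cause of this gap was not tested. AT1G70860, inside the array, had 0.453 and 1.04 CPM in the libraries labelled cml39, against 3.71 and 1.34 CPM in those labelled wt. Its log2 change was -1.78 ± 0.61 SE, just past the threshold (edgeR adjusted p = 0.0498). Without wt 1 it was -0.85 (edgeR adjusted p = 0.480), without cml39 1 the adjusted p was 0.108, and 6 of 12 other settings lost the call.

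AT5G28010 was the 1 tested family gene that rose, with 3.02 and 2.13 CPM in the libraries labelled cml39, against 0.788 and 0.622 CPM in those labelled wt (log2 change 1.85 ± 0.40 SE, edgeR adjusted p = 0.00858). Without wt 2 the edgeR adjusted p of AT5G28010 was 0.0637. The 2 tested genes that did not pass, AT1G23120 and AT1G23130, lie side by side on chromosome 1 and were named after their values were seen. AT1G23130 had 322 and 294 CPM in the libraries labelled cml39, against 272 and 291 CPM in those labelled wt, a log2 change of 0.13 (edgeR adjusted p = 0.359) that was -0.018 with upper quartile scaling. Under the cml39 label it was the most abundant of the 17 genes, above AT4G23670. AT1G23120 had 12.2 and 12.7 CPM in the libraries labelled cml39, against 9.19 and 11.3 CPM in those labelled wt (log2 change 0.28, edgeR adjusted p = 0.237).

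The PYR/PYL abscisic acid receptors, proteins of the same fold, were measured for comparison. Of 14 genes, 9 were tested by edgeR's quasi-likelihood test, 5 rose and 1 fell, beside 19.3% of all genes tested that rose and 21.6% that fell. With upper quartile scaling 4 of them passed. PYL7 had 24.5 and 24.5 CPM in the libraries labelled cml39, against 9.23 and 11.3 CPM in those labelled wt (log2 change 1.26 ± 0.15 SE, edgeR adjusted p = 0.000710). PYR1 had 53.8 and 39.0 CPM in the libraries labelled cml39, against 66.4 and 71.1 CPM in those labelled wt (log2 change -0.57 ± 0.16 SE, edgeR adjusted p = 0.0235). Both were named after their values were seen, the others that rose being PYL4, PYL5, PYL6 and RCAR3, and without wt 1 only 2 receptors passed.

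Organ markers were compared in the same fit. Of the 24 root genes, 20 fell and 0 rose by edgeR's quasi-likelihood test, beside 21.6% of all genes tested that fell and 19.3% that rose, with a median log2 change of -2.24. Their summed level was 1140.2 and 1405 CPM in the libraries labelled cml39, against 5274 and 4697 CPM in those labelled wt. PYK10 supplied 973 and 1210 CPM of it under the cml39 label and 4292.8 and 3748.5 CPM under the wt label. That gene was named outside the rule for naming genes. The nitrate transporter gene NRT1.5, which loads the root xylem, had a log2 change of -4.59 ± 0.15 SE (edgeR adjusted p = 2.58e-05), and the vacuolar aquaporin gene TIP2;2 one of -3.24 ± 0.12 SE (edgeR adjusted p = 2.58e-05). The phosphate exporter gene PHO1 (log2 change -2.02 ± 0.13 SE, edgeR adjusted p = 7.92e-05) and the phosphate uptake gene PHT1;1 (log2 change -1.70 ± 0.12 SE, edgeR adjusted p = 0.000103) fell as well. The 4 root genes that did not pass were SCR (log2 change 0.21), MYB36 (-0.23), PLT1 (-0.40) and PLT2 (-0.86). Their edgeR adjusted p ran from 0.246 to 0.700. WOX5, of the root stem cell niche, was named outside the rule for naming genes. It was at 0 in both libraries labelled cml39 and had 15 and 11 counts in those labelled wt, at least 6.95-fold lower. That limit was 3.33 without cml39 1 and 3.62 without cml39 2.

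Of 14 nuclear photosynthesis genes, 5 rose and 1 fell, close to the 40.9% of all genes tested that passed in either direction, with a median log2 change of 0.15, about the size of the shift between scalings given above, and a summed level of 52608 and 52336 CPM in the libraries labelled cml39, against 46744 and 46169 CPM in those labelled wt. Among them GAPA, of the Calvin cycle, rose (log2 change 0.81 ± 0.10 SE, edgeR adjusted p = 0.000837), as did the photorespiration gene GLDP1 (0.70 ± 0.14 SE, edgeR adjusted p = 0.00642) and the RuBisCO activase gene RCA (0.51 ± 0.11 SE, edgeR adjusted p = 0.0102). RBCS2B, a small subunit of RuBisCO, fell (log2 change -0.66 ± 0.12 SE, edgeR adjusted p = 0.00408). In the authors' deposited comparison the adjusted p of the Wald test was 0.450 for RBCS2B, 0.238 for RCA, 0.172 for GLDP1 and 0.0159 for GAPA. Without cml39 2, 3 of the 14 passed.

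For MLP34, the highest of the 10 per kilobase, the nearest patterns over the 4 libraries were sought among 11676 genes of at least 10 CPM on average, by the distance between centred log2 CPM values. AT5G16250 was nearest (distance 0.0893), with 9.56 and 10.6 CPM in the libraries labelled cml39, against 67.5 and 56.4 CPM in those labelled wt. The tubulin gene TUB1 (distance 0.140) and the acyltransferase gene BAT1 (distance 0.173) came next. These distances describe 4 libraries in 2 groups.

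In the authors' deposited table of their own comparison, 9 of the 10 genes had a negative log2 change of cml39 over wild type. The authors' deposited table gave -4.11 ± 0.32 (SE) for MLP28, -2.22 ± 0.39 for MLP34, -2.10 ± 0.39 for MLP43 and -1.60 ± 0.34 for AT1G70880. For the chromosome 2 pair the authors' deposited table gave -3.37 ± 0.54 (SE) for MLP328 and -1.80 ± 0.35 for MLP329. For the rest, the authors' deposited table gave -2.42 ± 0.58 (SE) for MLP423, -1.81 ± 0.50 for MLP165, -0.97 ± 0.60 for MLP168 and 0.40 ± 0.35 for MLP31. Each of the 9 was nearer to 0 there than in the fit of the counts, by the most in MLP168 and MLP423. The deposited Wald test adjusted p was 0.296 for MLP168 and 0.00388 or lower for the others of the 9, with none given for MLP31. The authors' mean count over the mean of the 4 libraries, relative to all genes, was 1.74 for MLP423 and 1.46 for MLP168. The median of this ratio over the 9 was 0.986. The cause of these gaps was not tested.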

How the data were processed

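Strand-specific mRNA libraries of 4 seedling samples were analysed, 2 labelled cml39 and 2 labelled wt, with groups and replicate numbers from their titles. The submitters' processing notes name CASAVA 1.8, FastQC, STAR 2.5.2b, DESeq2 1.14.1 and the build TAIR10, with no role or order. The strand setting and annotation of the counting are not given in the sources used here. The deposited gene table holds raw counts, checked as whole numbers. In the authors' deposited comparison table, the signal column is a mean normalized count, the fold change and its standard error are on the log2 scale, and the score is the Wald statistic. The p-value columns of that deposited table are the authors' own, with no adjusted p given for 3254 genes. Its fold changes come from another estimator, and its fit may hold libraries not analysed here.

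From the counts, edgeR 4.0.16 in R 4.3.3 fitted cml39 against wt over 19834 genes kept by filterByExpr. TMM scaling gave factors of 0.905 and 0.923 for cml39 1 and 2, and of 1.11 and 1.08 for wt 1 and 2. The quasi-likelihood F test was two-sided, with Benjamini-Hochberg adjustment over those genes and a threshold of 0.05. Biological variation (edgeR's BCV) was 0.129. In CPM, 3 counts are worth 0.151 and 0.164 in cml39 1 and 2, and 0.113 and 0.143 in wt 1 and 2. Intervals and floors cover counting error only. The fit was also run on simulated counts with few changed genes and the same spread for all genes. These settings are unlike the data, so that run checks the code only. Alternatives were DESeq2 1.42.0 and its size factors, limma 3.58.1 with voom, upper quartile scaling, no filter, 1 CPM in 2 libraries, a replicate block, a crossed block and each library left out.

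The 10 genes, the lists and the rule for naming genes were chosen with earlier results of these data known, and the seed marker list and the crossed block after these values were seen. The rule named all 10, every other MLP family gene past the threshold, up to 4 root and 4 shoot markers by lowest p, the 3 genes nearest in pattern to MLP34, and CML39. Positions and upstream sequences of 250 bases come from RefSeq's TAIR10.1. It held 32548 of the counted gene identifiers, all 10 among them, and lacked 285. Motifs were searched on both strands, and identities come from pairwise alignment. Coordinates of the authors were not used.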

Additional observations from a re-analysis of the deposited data

How the results depend on the processing

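The 9 fitted MLP genes kept their direction under every alternative that tested them, MLP168 being left out by the filter of 1 CPM in 2 libraries. The other 8 were past the threshold in each, and MLP168 was past it in 5 of 11. Among values of single family genes under alternatives, 210 kept direction and side of the threshold, 16 lost the call and 1 changed sign, AT1G23130 at -0.018 with upper quartile scaling. Under that scaling the summed log2 level of the 10 genes was -3.01 in place of -2.86. With the replicate number as a replicate block, 6744 genes in place of 8107 passed, 3 photosynthesis genes in place of 6, 8 of the 10 MLP genes and 6 of the other family genes, where MLP168, AT1G70860 and AT3G26450 (adjusted p = 0.0589) were the losses. Same-numbered libraries deviated at r = -0.151 over genes, so the numbers are not known to pair samples. A crossed block, chosen after seeing the data, gave 8696 genes, with 8 of the 10 and 8 other family genes. With 1 library left out, the lone library being assumed to vary like the other group's, counts ran from 4177 to 8364 for all genes, 8 to 9 for the 10 genes, 6 to 8 for the other family genes, 15 to 21 for root markers, 3 to 6 for photosynthesis genes and 2 to 7 for PYL receptors, and the summed level from -2.99 to -2.74. The causes of these shifts were not tested. DESeq2 called 6994 genes. For MLP168 and MLP31, with 0 to 21 counts a library, the depth limits what can be told.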
